A study of Mus musculus with 4 samples.

Results

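Lyve1, Timd4, Cd163, Folr2, Mrc1, Cd209f, F13a1 and Cbr2 are 8 mouse genes known as markers of macrophages that live for a long time in fat, many of them along blood vessels. They were chosen by symbol, with no measured value in the rule, and all 8 were found among the 55487 genes of the table. They were measured by RNA sequencing of adipocyte preparations from the perigonadal white fat, a visceral depot, of male mice fed a standard diet. Of the 4 libraries, 2 are from mice labelled CKO and 2 from their control littermates, labelled WT. The labels do not spell out CKO, and the sources used here give no allele, driver of a recombinase, strain or age. The series title names BLIMP1, the transcriptional repressor made from Prdm1, and its part in macrophages. No label ties a library to an animal of its own. The p-values here only set a difference between groups against the spread of libraries within groups, which may be technical. That spread is estimated in part from all genes tested.

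Tissue macrophages fall broadly into cells that were seeded early and renew themselves in place, and cells that keep arriving as blood monocytes. In fat, resident macrophages line vessels, take up debris, iron-bearing proteins and modified sugars, and carry scavenger receptors and C-type lectins on their surface. In obesity, incoming cells that load themselves with lipid, marked by genes such as Trem2 and Gpnmb, gather around dying adipocytes. The products of the 8 genes are known as endocytic receptors (LYVE1, TIM4, CD163, the folate receptor FOLR2, the mannose receptor MRC1 and the lectin CD209F) and as enzymes (the transglutaminase subunit F13A1 and the carbonyl reductase CBR2).

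Recovered reads per library came to between 24152081 and 26742547. Values are given as reads, or as scaled reads (reads over a size factor of 0.951 to 1.1), and differences, CKO minus WT, are of log2(scaled reads + 1), fitted with limma. Adipoq, which encodes adiponectin and defines mature adipocytes, had 71437 and 43436 reads in CKO and 44425 and 7561 in WT. The adipocyte list's mean stood 0.94 and 0.23 from its 4-library mean on the log2 scale in CKO replicates 1 and 2, and 0.34 and -1.51 in WT replicates 1 and 2. WT replicate 2 also held the most macrophage reads, with 31880 reads of Adgre1 (F4/80) against 8071 in WT replicate 1, and so stood apart from the other 3 libraries. Prdm1 had 152 and 386 reads in CKO and 514 and 1135 in WT, at -1.79 (SE 0.59, adjusted p 0.459), counted over the whole gene. These are whole adipocyte preparations, so fewer macrophages and less of a transcript in each macrophage cannot be told apart.

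The 8 resident macrophage genes differed between CKO and WT in both directions. Cd209f, Timd4, Lyve1, Cd163, Cbr2 and F13a1 were higher in CKO, by 1.77, 1.54, 1.18, 0.62, 0.31 and 0.25 on the log2 scale, while Folr2 and Mrc1 were lower, at -1.82 and -1.68. All 8 passed the filter on low values, and their median was 0.46, beside 0.015 over the 16871 genes tested, of which 51.1% lay above 0. Of 20 genes that mark macrophages in general 20 were lower in CKO, with a median of -2.54, although Mertk, at -0.029, turned positive under each of the 3 other scalings. No member passed an adjusted p under 0.05 in limma, and neither did any other gene (0%); voom weights gave 0 as well. At an unadjusted p under 0.05, 2 members were higher (Lyve1 and Cd209f), where 3.35% of all genes were, and 2 were lower (Mrc1 and Folr2), where 7.26% were. These backgrounds were 566 and 1224 genes, and 859 and 855 with unscaled values. Lyve1, Cd209f and Cbr2 were higher in each CKO library than in either WT library, as were 23.9% of all genes, and Mrc1 and Folr2 were lower, as were 26.8%.

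**Figure D1:**
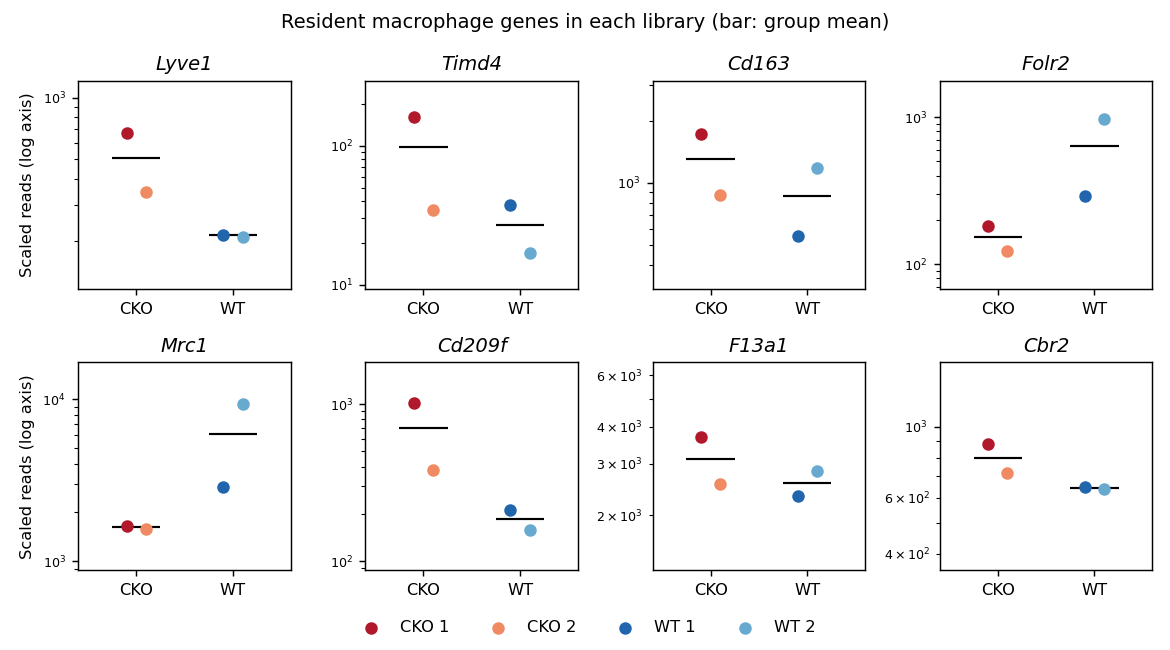
Scaled reads of each of the 8 genes on a log axis, 1 point per library, with a bar at the group mean, CKO on the left and WT on the right. Lyve1, Cd209f and Cbr2 are higher in both CKO libraries, Mrc1 and Folr2 are lower in both, and Timd4, Cd163 and F13a1 overlap.

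Lyve1, the receptor for hyaluronan shared by vessel-lining macrophages and lymphatic endothelium, lies on chromosome 7 of GRCm38 (110850607 to 110863239, minus strand). It had 669 and 381 reads in CKO replicates 1 and 2 and 206 and 199 in WT replicates 1 and 2. The WT libraries were nearly alike and the CKO libraries lay above them, 1 by more than the other. Scaled reads were 508 ± 230 in CKO libraries and 212 ± 3.3 in WT libraries (SD, n = 2), which gave a log2 change of 1.18 with a 95% interval of 0.13 to 2.23 (limma adjusted p 0.459). Prox1, the transcription factor that defines lymphatic endothelium, was close to 0 throughout, with 5 and 10 reads in CKO and 8 and 3 in WT. The vascular receptor gene Flt4 had 840 and 1700 reads in CKO and 813 and 275 in WT. Of 8 lymphatic genes 6 passed the filter, 5 of them above 0. The summed scaled reads of the 8, mostly those of Flt4, were 1009 and 1648 in CKO and 940 and 394 in WT. The part of these genes in the Lyve1 result was not tested.

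Timd4 encodes TIM4, the phosphatidylserine receptor with which resident macrophages bind apoptotic cells, and lies on chromosome 11 (46810800 to 46844332, plus strand). It was the least read of the 8, with 162 and 38 reads in CKO and 36 and 16 in WT. CKO replicate 1 stood alone at the top, and CKO replicate 2 overlapped WT replicate 1. The log2 change of 1.54 had a wide interval, -0.77 to 3.85 (limma adjusted p 0.495), and was 0.44 without CKO replicate 1 and 2.64 without CKO replicate 2. Cxcl13, a B cell attractant made by macrophages of the body cavities, had 762 and 66 reads in CKO and 26 and 6 in WT, again with CKO replicate 1 far above the rest. Gata6, the transcription factor of large peritoneal macrophages that mesothelium also makes, had 533 and 245 reads in CKO and 206 and 43 in WT. Of 11 genes of large peritoneal macrophages 8 were above 0 (9 with unscaled values), with summed scaled reads of 8500 and 13483 in CKO and 9003 and 8966 in WT, and their part in the Timd4 result was not tested.

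Cd163, the scavenger receptor for haemoglobin bound to haptoglobin, lies on chromosome 6 (124304656 to 124330527, plus strand). It had 1737 and 962 reads in CKO and 529 and 1118 in WT. The groups overlapped, since WT replicate 2 exceeded CKO replicate 2. Its log2 change was 0.62 with an interval of -0.73 to 1.96 (limma adjusted p 0.606), and it turned on each library: leaving out CKO replicate 1 gave 0.12, CKO replicate 2 1.11, WT replicate 1 0.067 and WT replicate 2 1.16. Genes of red blood cells, which make the haemoglobin that CD163 clears, were higher in CKO for 6 of 6 members, with summed scaled reads of 18914 and 30229 in CKO and 9084 and 3259 in WT, and their part in the Cd163 result was not tested.

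Cd209f, a C-type lectin of the mouse DC-SIGN family, had the largest positive difference of the 8. The gene lies on chromosome 8 (4102787 to 4105835, minus strand). It had 1019 and 419 reads in CKO and 204 and 149 in WT, so the groups were apart, with CKO replicate 1 well above CKO replicate 2. Scaled reads were 700 ± 453 in CKO libraries and 184 ± 39 in WT libraries (SD, n = 2), which gave a log2 change of 1.77 with an interval of 0.36 to 3.17 (limma adjusted p 0.459). Without CKO replicate 1 it was 1.05 and without CKO replicate 2 2.48. Cd209f shares sequence with its neighbour Cd209g. Of 2168 different 50-base windows in its annotated transcripts, 646 (29.8%) also stand in transcripts of Cd209g, so the split of reads between them is uncertain. Cd209g itself had 362 and 156 reads in CKO and 103 and 67 in WT, at 1.37. The other listed genes of this lectin cluster were on the same side. Cd209b was at 1.09 (SE 0.63), Cd209d at 1.09 (SE 0.69) and Cd209a, also known from dendritic cells, at 1.01 (SE 0.53). Once scaled, the groups overlapped for Cd209b and Cd209d. Sequence that these other genes share was not examined.

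Mrc1 encodes the mannose receptor CD206, a general label of tissue macrophages with an endocytic bent, and lies on chromosome 2 (14229392 to 14332057, plus strand). It had 1652 and 1744 reads in CKO and 2749 and 8892 in WT. The CKO libraries were nearly alike and below both WT libraries, of which WT replicate 2 was far the higher. Scaled reads were 1617 ± 53.2 in CKO libraries and 6102 ± 4593 in WT libraries (SD, n = 2), which gave a log2 change of -1.68 with an interval of -3.20 to -0.15 (limma adjusted p 0.459). Folr2, the folate receptor of resident macrophages, followed the same order by group. The gene, on chromosome 7 (101839988 to 101857194, minus strand), had 183 and 135 reads in CKO and 278 and 931 in WT, a log2 change of -1.82 with an interval of -3.51 to -0.14 (limma adjusted p 0.459). Gm10602, a predicted gene on the opposite strand, overlaps exons of Folr2 and had 21 to 30 reads; without a known strand setting, reads of the overlap cannot be told apart. The differences of both genes turned on WT replicate 2: without it Mrc1 was at -0.82 and Folr2 at -0.94. Without WT replicate 1 they were at -2.53 and -2.70 and passed, each with an adjusted p of 0.0442 in limma, where the single remaining WT library is taken to have the CKO spread and 1775 genes passed in all.

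The ratio of Mrc1 to Folr2 reads, which no scaling touches, was 9.03 and 12.9 in CKO and 9.89 and 9.55 in WT. The ratio of Mrc1 to Lyve1 reads was 2.47 and 4.58 in CKO and 13.3 and 44.7 in WT. The ratio of Mrc1 to Cd209f reads was 1.62 and 4.16 in CKO and 13.5 and 59.7 in WT. Within the set, Mrc1 and Folr2 thus kept close to each other in every library and parted from the other receptors. Cd163 and Lyve1 also kept a steady ratio in 3 libraries, 2.6 and 2.52 in CKO and 2.57 in WT replicate 1, but it was 5.62 in WT replicate 2.

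F13a1 and Cbr2 were the steadiest of the 8, with ranges over the 4 libraries of 0.66 and 0.47 on the log2 scale. F13a1 encodes the catalytic subunit of coagulation factor XIII, a transglutaminase that links proteins and is made by macrophages and megakaryocytes, and lies on chromosome 13 (36867178 to 37050244, minus strand). It had 3682 and 2813 reads in CKO and 2247 and 2694 in WT, groups that overlapped once scaled. Its log2 change was 0.25 with an interval of -0.51 to 1.02 (limma adjusted p 0.701), and -0.013 without CKO replicate 1. The platelet gene Ppbp had 92 and 205 reads in CKO and 89 and 105 in WT, and Gp1bb had 0 reads in all 4 libraries. The summed scaled reads of the 10 platelet genes were 285 and 624 in CKO and 323 and 353 in WT, and their part in the F13a1 result was not tested. Cbr2, a carbonyl reductase known in mice from lung and from differentiating adipocytes as well as from resident macrophages, lies on chromosome 11 (120729489 to 120732114, minus strand). It had 882 and 791 reads in CKO and 623 and 608 in WT. The groups did not overlap, yet the gap was small: scaled reads were 800 ± 118 in CKO libraries and 643 ± 5.39 in WT libraries (SD, n = 2), which gave a log2 change of 0.31 with an interval of -0.33 to 0.94 (limma adjusted p 0.586). Of its 50-base windows, 12.1% also stand in a gene model listed at 0 reads in every library.

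**Figure D2:**
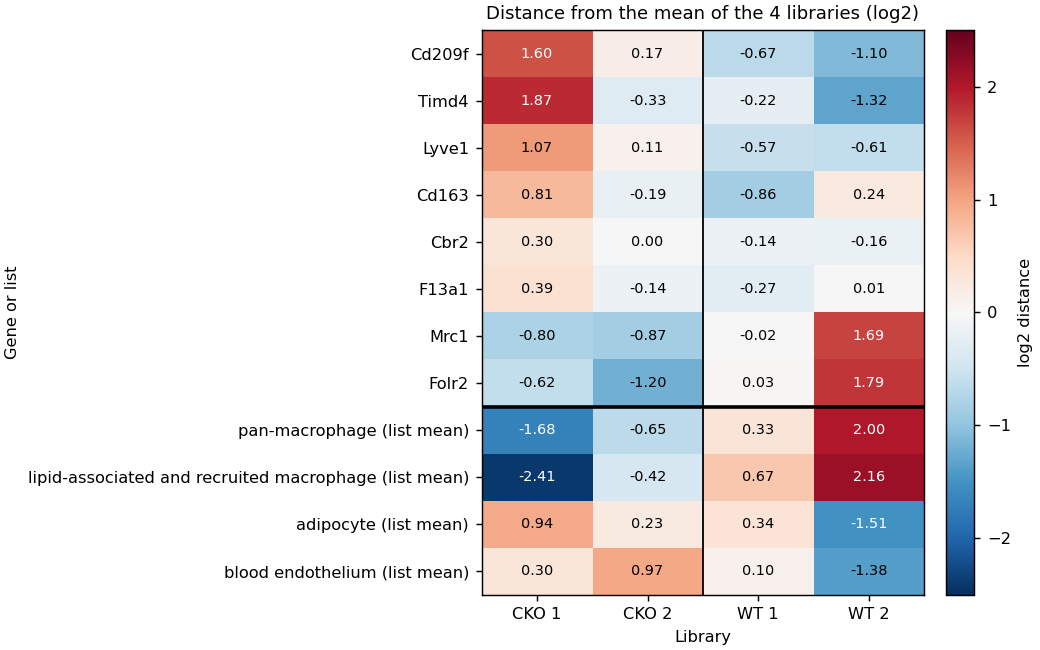
Each gene's distance from its own mean over the 4 libraries, in log2 units, with list means below the thick line, and CKO libraries left of WT libraries. Mrc1 and Folr2 are highest in WT replicate 2 (1.69 and 1.79), as is the pan-macrophage mean (2.00). Cd209f, Timd4, Lyve1, Cd163, F13a1 and Cbr2 are highest in CKO replicate 1.

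Promoter windows were read for the genes that were higher and lower together, since Prdm1 encodes a DNA-binding repressor. RefSeq windows on GRCm38.p6, from 250 bases before to 50 after a start, were listed for 7 of the 8 genes (9 windows, as Folr2 and F13a1 have more than 1 start). Lyve1 had no entry. The letters GAAAGT, the core of sites bound by BLIMP1 and by interferon regulatory factors, were searched on both strands, with GGAAGT for ETS factors such as PU.1 and TGCTGA for MAF factors. GAAAGT stood in 4 of the 9 windows and in 14.3% of all 32851 windows of the same length, GGAAGT in 4 and in 23.8%, and TGCTGA in 4 and in 19.5%. The 4 windows with GAAAGT were those of Timd4 and Cd163 and both windows of F13a1. Timd4 carried GGAAGT directly before GAAAGT (bases -66 to -61, with the start at 0). The longer GTGAAAGT, which contains GAAAGT, overlaps GGAAGT there and was searched after that window had been seen, stood in 1 of the 9, that of Timd4, and in 0.846% of all windows. The Cd209f window held none of these letters. Capitals mark the matches in the windows of Timd4 (chr11:46810549-46810848, plus strand), Cd163 (chr6:124304401-124304700, plus strand), Cd209f (chr8:4105715-4106014, minus strand), Mrc1 (chr2:14229164-14229463, plus strand) and the upstream start of Folr2 (chr7:101857141-101857440, minus strand), each 5′ to 3′; a match on the other strand shows as its reverse complement. The first 3 genes were higher in CKO and the last 2 lower. The windows of F13a1 and Cbr2 and the other start of Folr2 are not printed. F13a1, with GAAAGT in both its windows, was at 0.25, and at -0.013 without CKO replicate 1.
Timd4: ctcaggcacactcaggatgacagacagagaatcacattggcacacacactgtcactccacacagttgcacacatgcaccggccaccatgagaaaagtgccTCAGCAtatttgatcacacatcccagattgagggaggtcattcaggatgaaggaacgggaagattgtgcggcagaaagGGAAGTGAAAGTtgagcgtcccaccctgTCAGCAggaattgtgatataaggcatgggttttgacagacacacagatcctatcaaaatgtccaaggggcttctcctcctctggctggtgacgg
Cd163: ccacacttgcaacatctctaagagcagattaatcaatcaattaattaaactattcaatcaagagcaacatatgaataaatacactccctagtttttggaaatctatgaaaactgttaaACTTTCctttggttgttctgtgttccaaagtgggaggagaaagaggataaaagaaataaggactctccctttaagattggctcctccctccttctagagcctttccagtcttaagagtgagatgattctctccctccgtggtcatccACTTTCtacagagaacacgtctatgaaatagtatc
Cd209f: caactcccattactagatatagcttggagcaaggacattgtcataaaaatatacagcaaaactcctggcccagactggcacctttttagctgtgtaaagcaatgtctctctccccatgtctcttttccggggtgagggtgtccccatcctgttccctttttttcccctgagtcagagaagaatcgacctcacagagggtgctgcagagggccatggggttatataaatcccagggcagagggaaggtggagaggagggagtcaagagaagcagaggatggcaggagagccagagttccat
Mrc1: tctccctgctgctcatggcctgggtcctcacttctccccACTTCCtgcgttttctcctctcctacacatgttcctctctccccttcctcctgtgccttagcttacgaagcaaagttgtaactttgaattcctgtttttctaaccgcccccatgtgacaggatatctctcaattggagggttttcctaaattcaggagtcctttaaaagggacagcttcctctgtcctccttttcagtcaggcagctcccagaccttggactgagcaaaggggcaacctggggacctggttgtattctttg
Folr2: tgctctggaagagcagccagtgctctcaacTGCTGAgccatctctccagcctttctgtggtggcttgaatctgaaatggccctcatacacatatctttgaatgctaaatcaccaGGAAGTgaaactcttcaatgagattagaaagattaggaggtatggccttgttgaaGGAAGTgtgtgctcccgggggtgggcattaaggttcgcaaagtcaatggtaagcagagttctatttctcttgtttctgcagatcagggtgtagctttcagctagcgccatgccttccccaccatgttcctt
A match of letters is a description of the window and not a site of binding.

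Levels were compared between the 8 genes as RPKM, reads divided by exon length in kilobases and by the library's recovered reads, with exon lengths from GENCODE M21. Mrc1 averaged 10.3 ± 0.0205 RPKM in CKO and 35.6 ± 25.1 in WT, and Cbr2 24.3 ± 2.84 in CKO and 18.5 ± 1.35 in WT (SD, n = 2). F13a1 averaged 18.6 ± 4.26 in CKO and 14.5 ± 1.05 in WT, Cd209f 14.1 ± 8.78 in CKO and 3.56 ± 0.977 in WT, and Cd163 9.59 ± 4.25 in CKO and 5.92 ± 2.7 in WT. Cbr2 was first of the 8 in RPKM in both CKO libraries and in WT replicate 1, and Mrc1 was first in WT replicate 2. Lyve1 averaged 6.98 ± 2.96 RPKM in CKO and 2.76 ± 0.222 in WT, and Folr2 3.98 ± 1 in CKO and 15.2 ± 11 in WT. Timd4 was last in every library, at 1.8 ± 1.62 RPKM in CKO and 0.484 ± 0.286 in WT. By mean, the order in CKO was Cbr2, F13a1, Cd209f, Mrc1, Cd163, Lyve1, Folr2 and Timd4, and each neighbouring pair lay closer than the sum of its SDs. In WT it was Mrc1, Cbr2, Folr2, F13a1, Cd163, Cd209f, Lyve1 and Timd4, and only F13a1 and Cd163, and Lyve1 and Timd4, lay farther apart than that.

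The 8 genes summed to 108 and 71.4 RPKM in CKO and 70.4 and 123 in WT, ranges that overlap, but the make-up of the sum differed. Mrc1 made up 9.52% and 14.3% of it in CKO and 25.4% and 43.5% in WT. Folr2 made up 4.35% and 4.57% in CKO and 10.6% and 18.8% in WT. Cd209f made up 18.8% and 11% in CKO and 6.03% and 2.33% in WT, and Lyve1 8.42% and 6.84% in CKO and 4.15% and 2.12% in WT. For each of these 4 genes the share in both CKO libraries lay on the same side of the share in both WT libraries. The same held for Cd163, with 11.7% and 9.23% in CKO and 5.7% and 6.38% in WT. It also held for F13a1, with 20.1% and 21.9% in CKO and 19.6% and 12.4% in WT. The shares of Timd4 and Cbr2 overlapped between the groups. Shares of a sum are bound together, so larger shares of Mrc1 and Folr2 lower those of the other genes.

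**Figure D3:**
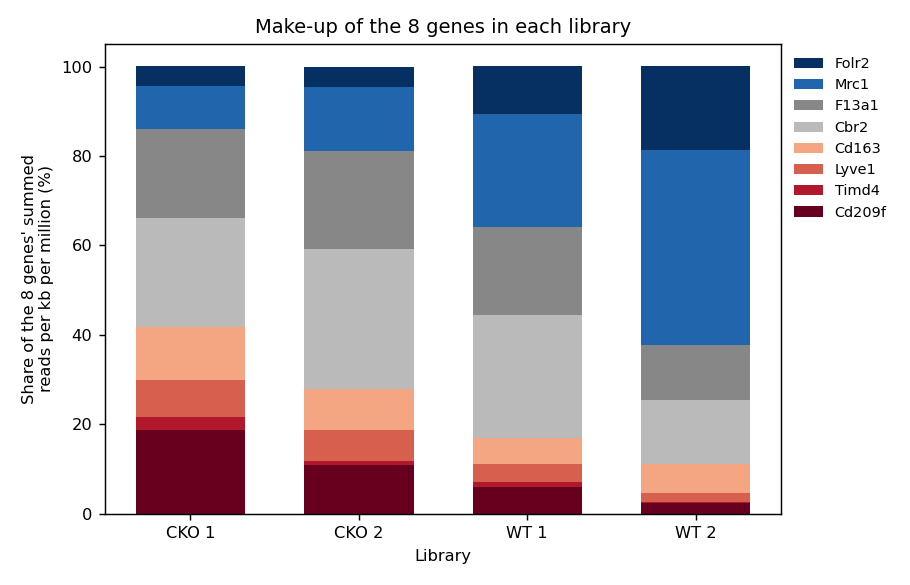
Stacked bars of each gene's share, in percent, of the 8 genes' summed RPKM in each library, CKO libraries left of WT libraries. Mrc1 and Folr2 (blue) take 9.52% and 4.35% in CKO replicate 1 and 43.5% and 18.8% in WT replicate 2, with the other 2 libraries between.

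Set against macrophage genes in general, the mean of the 8 resident genes stood higher in CKO. In the mean log2 level of the 8 genes minus that of 20 pan-macrophage genes, the CKO libraries stood at -0.42 and -2.33 and the WT libraries at -3.34 and -4.60, a difference of 2.60. With 2 libraries against 2 an exact two-sided permutation test cannot go below 0.333, which is the p it gave. The mean log2 level of the 8 genes alone was 9.67 and 8.79 in CKO and 8.75 and 9.16 in WT, so the difference of 2.60 came mostly from the pan-macrophage mean, which was 10.09 and 11.12 in CKO and 12.09 and 13.76 in WT (a difference of -2.33, against 0.27 for the 8 genes). Gene by gene the difference ran from 4.09 for Cd209f, 3.87 for Timd4 and 3.51 for Lyve1 to 0.65 for Mrc1 and 0.51 for Folr2. For Folr2 the groups overlapped, at -2.56 and -4.17 in CKO and -3.91 and -3.83 in WT. Since the groups do not overlap in the pan-macrophage mean itself, a gene at the same level in all 4 libraries would also come out apart on this scale.

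As plain read ratios, Lyve1 had 48.3 and 12.3 reads per 100 Adgre1 reads in CKO and 2.55 and 0.624 in WT. Cd163 had 126 and 31 reads per 100 Adgre1 reads in CKO and 6.55 and 3.51 in WT. Against Csf1r, the receptor that macrophages need to survive, the ratio of Mrc1 was flatter: 34.8 and 23.1 reads per 100 Csf1r reads in CKO and 19.6 and 20.4 in WT. Folr2 had 3.86 and 1.79 reads per 100 Csf1r reads in CKO and 1.98 and 2.13 in WT, ranges that overlap. Both genes thus kept nearer to Csf1r than the other 6, whose log2 ratio to Csf1r differed by 2.44 (F13a1) to 3.96 (Cd209f), against 0.51 for Mrc1 and 0.35 for Folr2. Against Adgre1 neither was flat. Per 100 Adgre1 reads Mrc1 had 119 and 56.1 in CKO and 34.1 and 27.9 in WT. Folr2 had 13.2 and 4.35 in CKO and 3.44 and 2.92 in WT. The log2 ratio of Adgre1 to Csf1r itself differed by -0.90, so the flatness depends on the gene compared with.

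**Figure D4:**
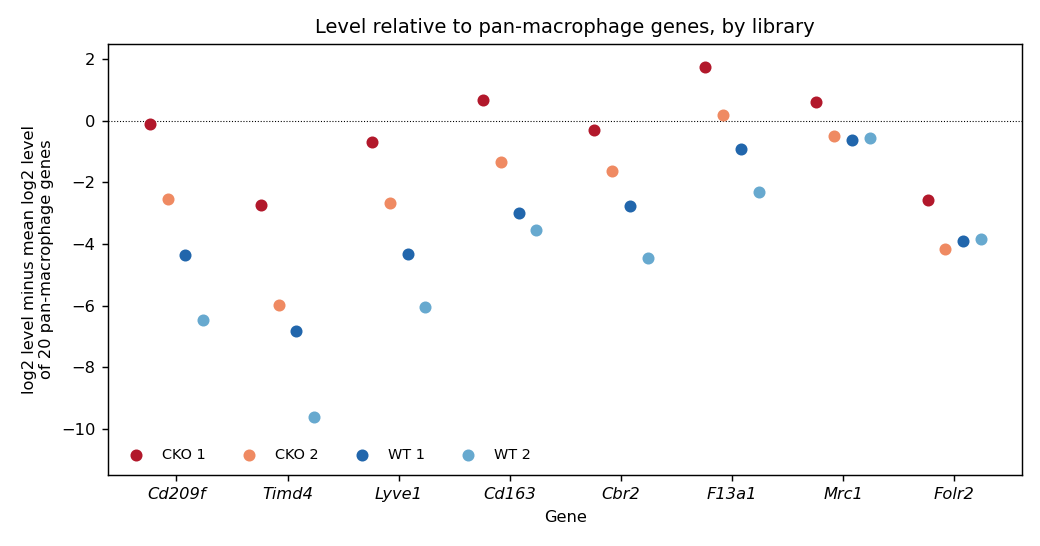
Log2 level of each of the 8 genes minus the mean log2 level of 20 pan-macrophage genes, 1 point per library, CKO libraries left of WT libraries. Cd209f runs from -0.088 in CKO replicate 1 to -6.46 in WT replicate 2, while Mrc1 spans 0.61 to -0.61.

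A wider list held 37 other genes linked to resident macrophages, all of which passed the filter. Of these, 18 were higher in CKO and 19 lower, with a median of -0.062, which was 0.071 with unscaled values (20 higher and 17 lower). In limma 0 of them passed the adjusted threshold, and 6 had an unadjusted p under 0.05, 2 of them higher (3.35% over all genes) and 4 lower (7.26% over all genes). The groups did not overlap for 25 of the 37, with CKO higher in 10, where 23.9% of all genes were, and lower in 15, where 26.8% were. On the higher side, the inhibitor of DNA binding gene Id3 had 18145 and 19468 reads in CKO and 8474 and 3960 in WT, a log2 change of 1.56. Gas6, a bridge between phosphatidylserine and the receptor MERTK, had 11232 and 8908 reads in CKO and 6870 and 3359 in WT, at 0.92. Txnip, which restrains glucose uptake, was at 1.06, and the endothelin receptor gene Ednrb at 1.10. The complement gene C4b was at 0.80, with 18474 and 14629 reads in CKO and 19627 and 3782 in WT. Without WT replicate 2 the change of C4b turned negative. Nrp1, Klf2 and Klf4, which vascular endothelium also makes, were at 0.44, 0.42 and 0.62, and the antibody-recycling receptor gene Fcgrt at 0.33. Klf2 and Klf4 turned negative without CKO replicate 2.

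On the lower side, Selenop, a selenium carrier, had 21114 and 22539 reads in CKO and 26207 and 65432 in WT, at -1.06, an order over the libraries like that of Mrc1. The growth factor gene Igf1 was at -0.11 and turned positive with unscaled values. The lipid-associated and recruited macrophage list was lower for 16 of 16 genes, with a median of -3.22, or 15 of 16 under other scalings, where Cd36 turned positive, and Trem2 had 49 and 343 reads in CKO and 842 and 3734 in WT. Of 12 tested monocyte genes, 7 were lower, with Ccr2, the receptor through which monocytes enter tissue, at -1.48. Ly6c2, the defining gene of inflammatory monocytes, was low throughout, with 8 and 6 reads in CKO and 19 and 5 in WT.

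**Figure D5:**
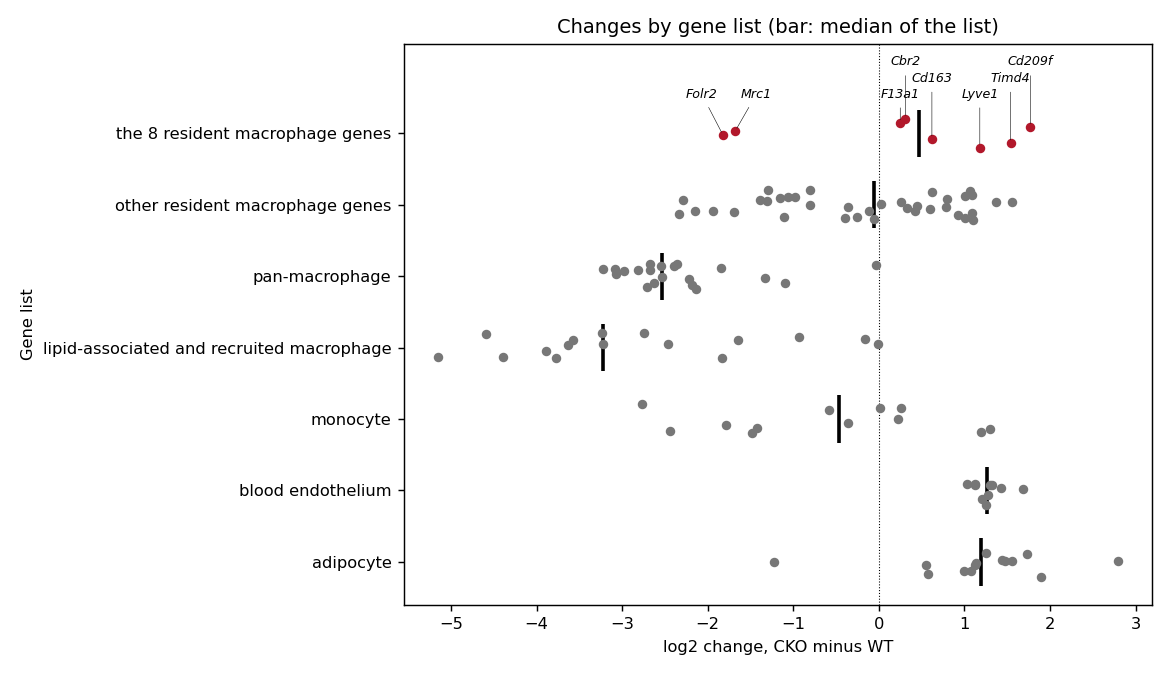
Log2 change, CKO minus WT, of each gene that passed the filter, by list, with a bar at each list's median. The 8 resident genes spread from -1.82 to 1.77 around a median of 0.46, while the pan-macrophage and lipid-associated medians are -2.54 and -3.22 and the endothelial and adipocyte medians 1.26 and 1.19.

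Transcripts of other cells also differed between the libraries beside the resident genes. Blood endothelium, along which perivascular macrophages sit, was higher in CKO for 10 of 10 genes, with summed scaled reads of 62282 and 95606 in CKO and 51837 and 18477 in WT. The adipocyte list was higher for 13 of 14 genes, with a median of 1.19. Both lists were lowest in WT replicate 2, as were Lyve1, Timd4, Cd209f and, by little, Cbr2 (-0.16 from its mean, against -0.14 in WT replicate 1). The adipocyte list was highest in CKO replicate 1, as were Lyve1, Timd4, Cd163, Cd209f, F13a1 and Cbr2, and the endothelial list in CKO replicate 2. Without WT replicate 2 the endothelial and adipocyte medians were 0.50 and 0.33, and that of the 8 genes was 0.69. Without WT replicate 1 the medians were 2.03 and 2.15, and 0.21 for the 8 genes. Without CKO replicate 1 they were 1.59 and 0.88, and 0.14 for the 8 genes. Without CKO replicate 2 they were 0.89 and 1.59, and 0.82 for the 8 genes. Mesothelial genes, which can come with gonadal fat, summed to 392 and 235 scaled reads in CKO and 325 and 166 in WT. Fibroblast genes summed to 26012 and 29395 in CKO and 30413 and 33873 in WT, with 7 of 10 lower (5 with unscaled values). The part of these cells in the levels of the 8 genes was not tested.

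Genes of like pattern were sought among 12955 named protein-coding genes by the root mean square distance between log2 profiles, each centred on its mean over the 4 libraries. Nearest to the mean profile of the 8 was Ccl8, a chemokine known from resident macrophages, at a distance of 0.0303, with 709 and 404 reads in CKO and 351 and 474 in WT. Next were Bbs12 (0.0458), Etv3, a transcriptional repressor (0.0476), Spag1 (0.0498), Pank1 (0.0685) and Hesx1 (0.0815). This mean profile averages the unlike patterns of Mrc1 and Folr2 and of the other genes. Nearest to Lyve1 was the glucose transporter gene Slc2a3 (0.0628), with 647 and 340 reads in CKO and 207 and 186 in WT. The gene of complement component C7 was the second nearest to Timd4 (0.113), with 1720 and 485 reads in CKO and 376 and 176 in WT. Nearest to Mrc1 was Ckb, the brain-type creatine kinase (0.0493), with 2612 and 2892 reads in CKO and 4413 and 15369 in WT. Nearest to Folr2 was Ms4a6b, a membrane protein of immune cells (0.0611), with 261 and 198 reads in CKO and 367 and 1362 in WT. Each distance rests on 4 libraries and is a description.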

How the data were processed

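RNA was sequenced from adipocyte preparations of 2 CKO and 2 WT libraries, per the labels' protocols on a NovaSeq. Per the submitters' processing notes, STAR 2.7.5c and GRCm38.p6 were used, with FastQC; the sources used here name no counter, annotation or strand setting. The deposited values are on a log2 scale and carry the name normalised counts. Yet 2 to their power minus 1 was whole within 0.01 for 100% of genes. The authors' log2 values were therefore taken as log2(reads + 1), unscaled. Reads were divided by median-ratio size factors (19847 genes), 1 was added, and genes whose deposited log2 values averaged 3 or more were fitted with limma 3.58.1 in R 4.3.3 (eBayes with trend, 2 residual and 2.92 prior degrees of freedom, Benjamini-Hochberg over all genes tested). The fit was tested on simulated data set to a smaller spread between libraries than most of the 8 genes had. That test does not gauge the fit at their spread. The 8 genes and all lists were chosen with earlier results of these data known. Named were the 8 genes, the 12 most read genes of the wider resident list, the 2 most read and the defining genes of other lists, and genes of nearest profile; some of these are not reported here. Prdm1 was named for the series title, and Cxcl13, Naip1, Arg1, Mertk, Gp1bb and the other Cd209 genes after their values were seen. Positions are 1-based from GENCODE M21, which matched 99.3% of identifiers. Symbols on more than 1 row (112) took the row of highest mean.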

Additional observations from a re-analysis of the deposited data

How the results depend on the processing

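Depth was lowest for Timd4, with 36 and 16 reads in WT libraries. Under the 9 other scalings, filters, pseudocounts and variance models, each of the 8 genes kept its sign and stayed short of the adjusted threshold in limma (Timd4 was not tested at a minimum of 6), and their median ran from 0.31 to 0.59. The lists' directions under other scalings were examined after seeing the data. Unscaled values moved the median of all genes to 0.15. Leaving out single libraries gave 0 to 1775 genes past the threshold (1775 without WT replicate 1), member medians of 0.14 to 0.82, and differences relative to pan-macrophage genes of 1.64 to 3.56. In the same fits F13a1 ran from -0.013 to 0.52, and 5 genes were higher and 3 lower without CKO replicate 1. With Adgre1, C1q genes or a median in place of the pan-macrophage mean, the relative difference was 3.36, 2.39 and 2.77. No paired analysis was possible because replicates were numbered in record order, which pairs no libraries.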

Other observations

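Further genes of the wider resident list differed in both directions. Siglec1, a sialic acid receptor, had 294 and 320 reads in CKO and 638 and 1820 in WT, a log2 change of -1.94. Clec10a, a galactose-type lectin, had 694 and 722 reads in CKO and 938 and 4632 in WT, at -1.69, and the complement receptor gene Vsig4 was at -1.11. Il10, the anti-inflammatory cytokine gene, had 54 and 43 reads in CKO and 71 and 717 in WT, so its log2 change of -2.34 turned on WT replicate 2. The chemokine gene Ccl24, by contrast, had 486 and 638 reads in CKO and 348 and 246 in WT, at 0.79. None of these passed the adjusted threshold in limma, and they were picked after their values were seen.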
